A study of Rattus norvegicus with 2 samples.

Results

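The 8 rat genes of iron storage, iron handling and metal binding described here are Ftl1 (ferritin light chain), Fth1 (ferritin heavy chain), Hmox1 (haem oxygenase), Tfrc (transferrin receptor), Slc40a1 (ferroportin), Slc11a1 (a transporter that moves metal ions out of the phagosome), Mt1 and Mt2A (metallothioneins), chosen by their symbols out of 32623 genes in the count tables. Cells store iron inside ferritin, a hollow shell built from light chains, which favour the forming of the mineral core, and heavy chains, which oxidise iron so that it can enter. Iron arrives with transferrin through the transferrin receptor or is freed from haem by haem oxygenase, and it leaves through ferroportin. Metallothioneins are small cysteine-rich proteins that bind zinc and copper, and their genes are induced by metals and by glucocorticoids. Microglia, the resident macrophages of the brain, take up dying cells during development and handle the iron those cells release.

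The cells were rat hippocampal microglia from embryos at gestational day 20, separated by flow cytometry, and their transcripts had been counted in single cells as unique molecular identifiers (UMIs). Prenatal exposure to the synthetic glucocorticoid dexamethasone defined the dexamethasone library, and the control library held unexposed embryos, with 7 male embryos in each. The labels used here give no dose, route or days of treatment. Each group is 1 library, so there is no replicate and no test, and a difference between animals, pools or runs cannot be told apart from the exposure. The intervals below are 95% intervals (exact Poisson for a level, exact conditional binomial for a ratio, Clopper-Pearson for a share of cells) and cover counting error only.

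After filtering, 4198 of 4328 dexamethasone and 8044 of 8342 control barcodes were kept. The libraries held 42611920 and 69940778 UMIs and shared 5 barcodes. Clustering without the genes described here gave 6 microglia-like clusters with 3179 dexamethasone cells (75.7%) and 6165 control cells (76.6%), at medians of 9325 and 8077 UMIs, where 18 of the 19 microglia markers in the tables had UMIs and Siglech stood at 0. Cluster 0 was led by the homeostatic genes Tmem119 and P2ry12, and cluster 2 by Spp1, Gpnmb and Cd8a. Clusters 1 and 8 were led by replication genes such as Mcm6 and Cdc6, cluster 5 by histone genes and cluster 4 by mitotic genes such as Cdc20. Other groups were border-associated-macrophage-like cells (347 and 717 in the dexamethasone and control libraries), erythroid-like cells (103 and 130) and neuron-like cells (117 and 442). A low-complexity cluster led by Pf4 and Mt1 held 350 and 421 cells with medians of 5185 and 2383 UMIs. Mitochondrial UMIs made up 3.12% of the microglia-like total in the dexamethasone and 5.99% in the control library, and ribosomal protein genes 16.3% and 14.4%.

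The metallothionein genes lie close together on chromosome 19, and Mt1 and Mt2A transcripts were found in the same cells as described later, so the 250 bases before each start are shown, 5′ to 3′ on the gene's strand. Sequences are from RefSeq on GRCr8, where 4 of the 8 genes had a promoter entry by symbol (Mt1, Mt2A, Tfrc and Slc40a1), and the counts were made on another assembly. Capitals mark each match, on either strand, to the core of the metal response element, TGCACNC or TGCGCNC, the element bound by the metal-sensing factor MTF1.
Mt1 (chr19:10832976-10833225, minus strand): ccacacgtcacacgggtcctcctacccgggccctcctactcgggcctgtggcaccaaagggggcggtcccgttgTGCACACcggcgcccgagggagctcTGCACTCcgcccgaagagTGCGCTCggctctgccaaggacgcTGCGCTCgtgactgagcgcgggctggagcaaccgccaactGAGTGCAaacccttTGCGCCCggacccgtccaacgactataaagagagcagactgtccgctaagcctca
Mt2A (chr19:10838709-10838958, minus strand): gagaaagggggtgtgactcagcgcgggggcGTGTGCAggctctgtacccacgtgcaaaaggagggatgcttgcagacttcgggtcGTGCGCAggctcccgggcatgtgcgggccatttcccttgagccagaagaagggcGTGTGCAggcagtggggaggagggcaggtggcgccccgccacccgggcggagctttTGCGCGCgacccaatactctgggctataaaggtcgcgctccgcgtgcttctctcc
Mt1 held 6 matches, between 176 and 49 bases before the start, and Mt2A held 4, between 220 and 49 bases before it. No match overlapped another in either window. At least 1 match was found in 20.6% of 33469 promoter windows of the same length, and at least 4 in 0.266% of them. Each window also held a TATAAA box (12.9% of all windows) and 1 match to TGACNNNGC, the core of the antioxidant response element (10.1%). The full palindromic glucocorticoid response element, AGAACA and TGTTCT 3 bases apart, had no match in these letters in either window, and 4 of all the windows held it. An exact match is so rare that nothing is read from its absence, and bases further from the start were not searched. The Tfrc window held 3 matches to TGCGCNC, of which 2 overlap, and the Slc40a1 window none.

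Ferritin transcripts were the most abundant among these genes and stood higher in the dexamethasone library. Protein was not measured. In microglia-like cells Ftl1 had 7178 UMIs per 1000000 (CPM; interval 7149 to 7207) in the dexamethasone and 4384 (4367 to 4401) in the control library. The intervals lay far apart, at 1.64-fold, a log2 ratio of 0.71 (0.70 to 0.72), higher than for 98.1% of the 10577 genes with at least 100 UMIs. Fth1 had 5397 CPM against 4644, a smaller difference of 0.22 (0.21 to 0.23) on the log2 scale. The balance of the transcripts therefore differed: dexamethasone cells had 1.33 Ftl1 UMIs per Fth1 UMI (1.32 to 1.34), and control cells had 0.944 (0.939 to 0.949). The shift was present across cells, since at an equal depth of 4400 UMIs the median microglia-like cell held 28 Ftl1 UMIs against 17 in the control, and the quartiles were 21 and 37 against 12 and 23. For Fth1 the medians were 21 and 18 UMIs at that depth. Near-identical copies limit these counts, because RefSeq lists 22 other Ftl1 copies and 6 of Fth1, and how reads were shared among them is not given in the sources used here.

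Ftl1 was higher in the dexamethasone library in each cell group measured, microglia or not. The log2 ratio lay between 0.67 and 0.81 in the 6 microglia-like clusters, and was 0.67 in border-associated-macrophage-like, 0.70 in low-complexity and 0.77 (0.71 to 0.83) in erythroid-like cells. Neuron-like cells, which passed the sort for microglia, gave the smallest value, 0.47 (0.40 to 0.54), at 3529 against 2539 CPM. Free RNA from lysed cells reaches all droplets of a library, and its part in these values was not tested. Within cluster 0 the ratio was 0.56 to 0.67 in each range of cell depth above 2500 UMIs, and -0.26 (-0.64 to 0.11) below it, where 29 dexamethasone and 45 control cells remained. Fth1 varied more between groups. It was higher by 0.14 to 0.25 in the microglia-like clusters, did not differ beyond counting error in border-associated-macrophage-like cells (4681 against 4635 CPM, log2 ratio 0.01, -0.01 to 0.04), and was lower in neuron-like cells (-0.11, -0.19 to -0.03).

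**Figure D1:**
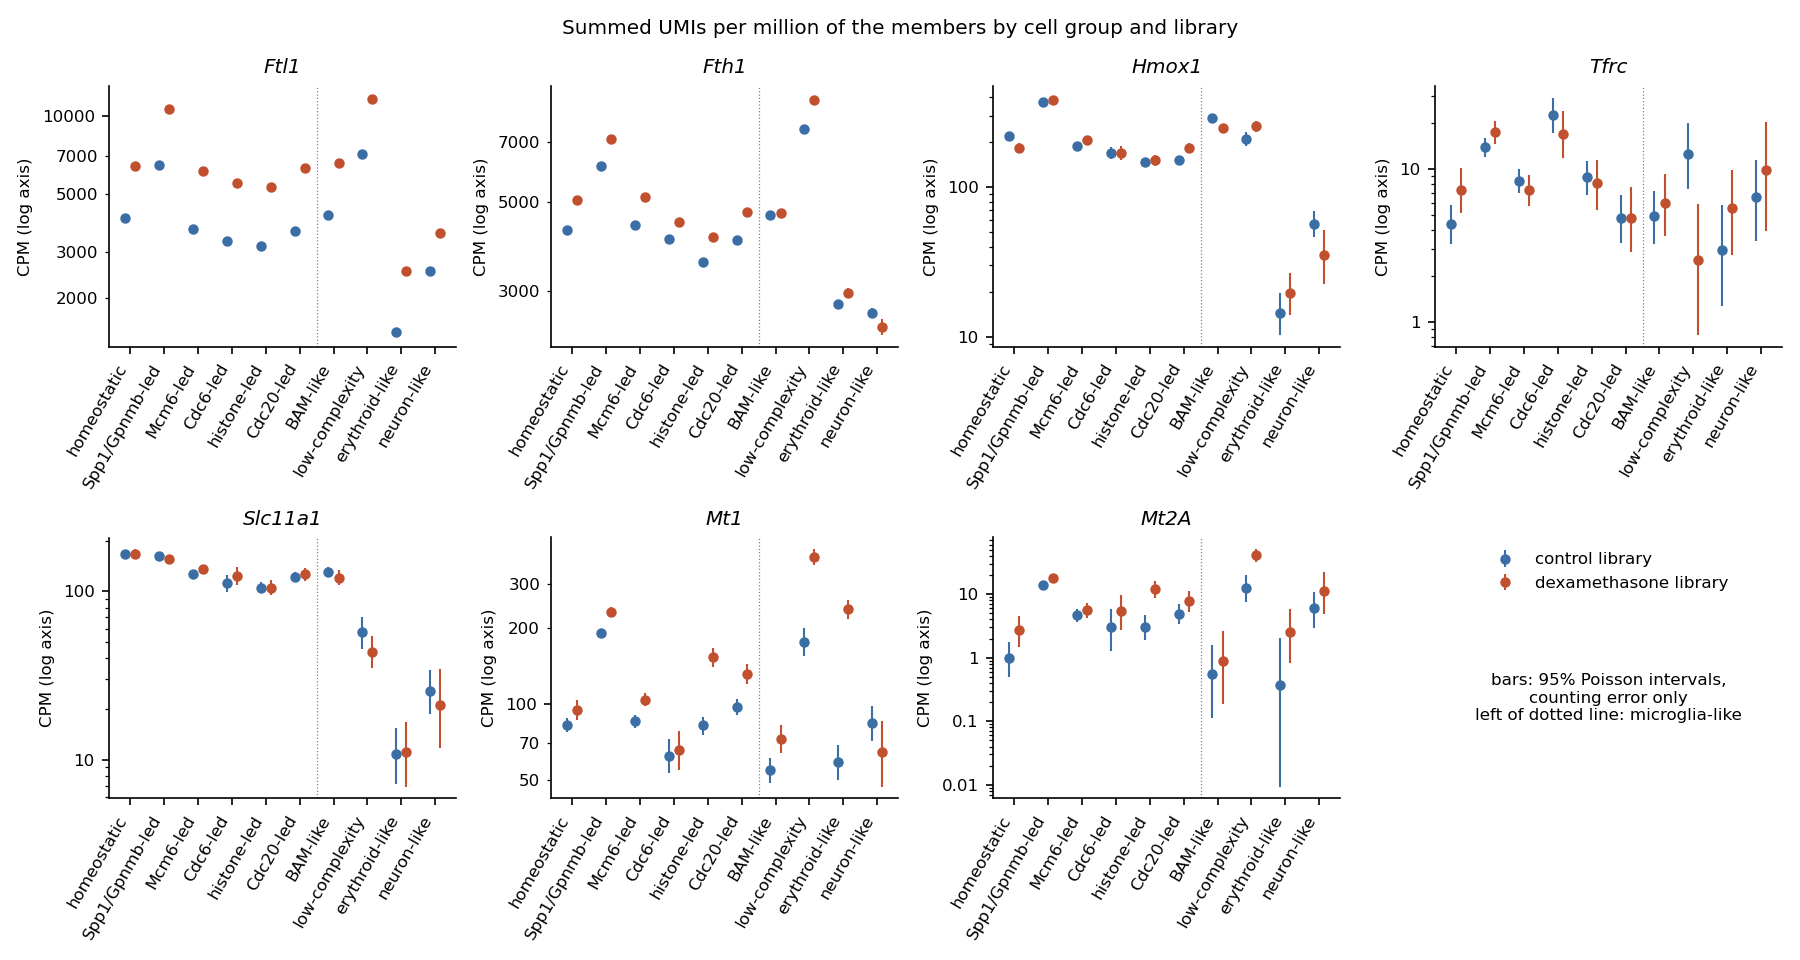
Levels of 7 genes (CPM on a log axis; Slc40a1 had no UMI) in 10 cell groups, with control cells in blue and dexamethasone cells in red and bars for 95% Poisson intervals. Ftl1 points of the dexamethasone library lie above those of the control in every group, while the Slc11a1 points nearly coincide in microglia-like groups; BAM-like stands for border-associated-macrophage-like.

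Haem oxygenase, the enzyme that opens the haem ring and frees its iron, was alike in the summed microglia-like cells. Hmox1 stood at 234.2 CPM in the dexamethasone and 231.0 CPM in the control library, a log2 ratio of 0.02 (-0.02 to 0.06). The clusters within this even sum had intervals on both sides of 0. In the homeostatic cluster 0 Hmox1 was lower in the dexamethasone library, at 183.7 against 217.6 CPM (-0.24, -0.35 to -0.14). By cell depth, its interval there lay below 0 only in cells of 5000 to 10000 UMIs (-0.35, -0.49 to -0.21). The interval included 0 in cells of 2500 to 5000 UMIs (-0.03, -0.32 to 0.25), in those above 10000 (-0.04, -0.31 to 0.24) and in those below 2500. In cluster 1 Hmox1 was higher, at 206.3 against 188.8 CPM (0.13, 0.05 to 0.21), and in the mitotic cluster 4 at 181.5 against 150.9 CPM (0.27, 0.12 to 0.41). A few cells held part of these UMIs: in cluster 1, 5 cells held 211 of 2106 in the dexamethasone library (83 of them in 1 cell) and 106 of 2636 in the control, and in cluster 0, 5 cells held 4.62% and 8.07%. Border-associated-macrophage-like cells were at 248.1 against 289.5 CPM (-0.22, -0.35 to -0.10), and after thinning to equal depth the interval included 0 (-0.18, -0.36 to 0.00). At equal depth the share of microglia-like cells with a Hmox1 UMI was 52.9% (51.1 to 54.7%) and 52.5% (51.2 to 53.9%), from 3028 and 5557 cells after leaving out 151 and 608 shallower ones. Without thinning it was 75.3% against 70.3%, at the different median depths given above. In erythroid-like cells thinned alike, the share was 6.9% and 4.7%.

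Tfrc was low and Slc11a1 even between the libraries in the summed microglia-like cells. Tfrc, which brings transferrin-bound iron into the cell, had 334 UMIs (10.1 CPM) in dexamethasone and 524 (9.28 CPM) in control microglia-like cells, a log2 ratio of 0.13 (-0.07 to 0.33). Without the cycling clusters its interval lay above 0, at 13.4 against 9.73 CPM (0.46, 0.18 to 0.75). In cluster 0 it had 7.33 against 4.37 CPM, from 38 and 49 UMIs (0.75, 0.10 to 1.39). Slc11a1, known as a phagosomal metal transporter of macrophages, stood at 140.0 and 140.3 CPM, a log2 ratio of -0.00 (-0.06 to 0.05), and its interval included 0 in every microglia-like cluster except cluster 1. Slc40a1, the iron exporter, had 0 UMIs among the 112552698 in all barcodes of both libraries. The floor of 3 counts used for a count of 0 equals 0.0704 CPM in the dexamethasone and 0.0429 CPM in the control library. Whether the reference used for counting could record this gene was not tested. Of the 7 genes with UMIs, 4 had an interval above 0 in microglia-like cells (Ftl1, Fth1, Mt1 and Mt2A) and 0 had one below. Over all 10577 genes, 24% had an interval above 0 and 24.5% one below. Ftl1 alone was at least 1.5-fold higher, as 2.78% of all genes were, and 0 were 1.5-fold lower, as 2.3% were. Cluster by cluster, intervals above 0 were found for 5 of 7 genes in clusters 0, 1 and 2 (14.2%, 15.9% and 17.3% of all genes), 4 of 7 in clusters 4 and 5 (11.2% and 11.3%) and 2 of 6 in cluster 8 (9.59%). An interval below 0 was found for 1 gene, Hmox1 in cluster 0 (13.7% of all genes there), and for 0 in clusters 1, 2, 4, 5 and 8 (18%, 15%, 15.3%, 13.3% and 10.6%).

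**Figure D2:**
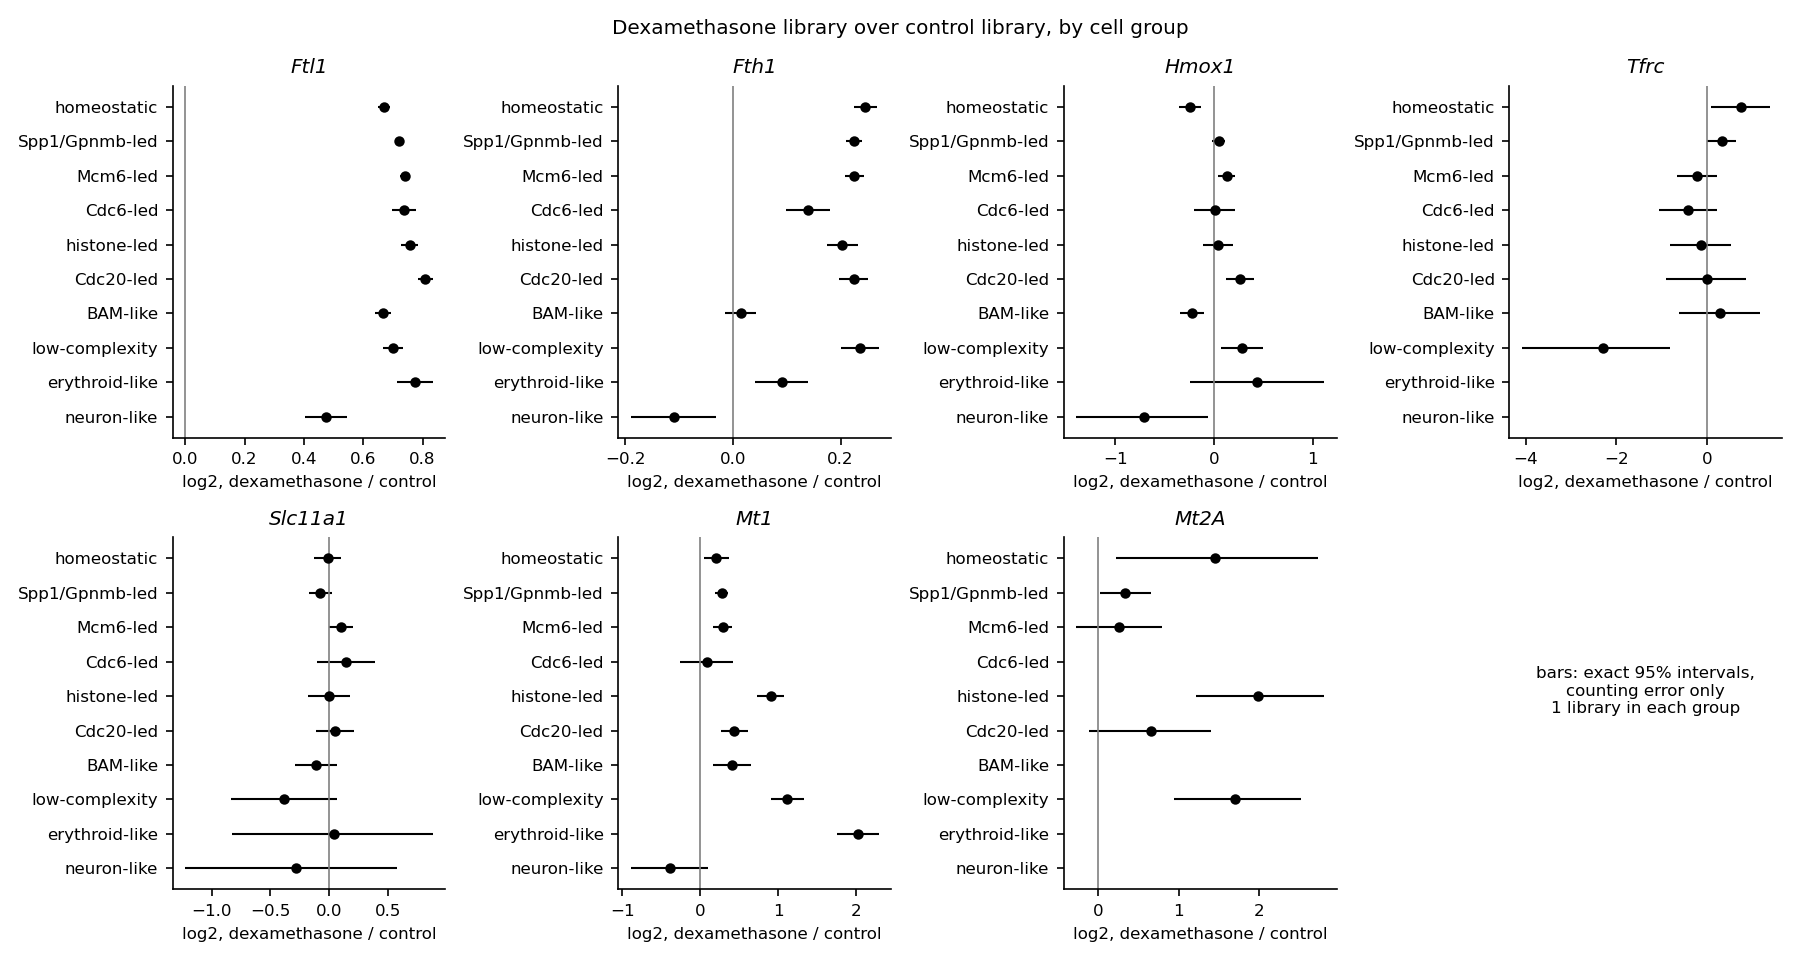
Log2 ratio of the dexamethasone over the control library (x axis) for 7 genes in 10 cell groups, with exact 95% intervals; groups with under 20 UMIs of a gene are not drawn. Ftl1 lies right of 0 in every group, and Hmox1 lies left of 0 in homeostatic and border-associated-macrophage-like cells and right of it in Cdc20-led cells.

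In the summed microglia-like cells Mt1 and Mt2A were higher in the dexamethasone library, and part of their transcripts sat in few cells. In microglia-like cells Mt1 had 140.6 CPM (136.6 to 144.7) in the dexamethasone and 112.9 CPM (110.1 to 115.7) in the control library, a log2 ratio of 0.32 (0.26 to 0.37). Mt2A had 9.07 and 6.13 CPM, from 299 and 346 UMIs, a log2 ratio of 0.57 (0.34 to 0.79). The share of cells with a Mt1 UMI at equal depth was close in both libraries, at 27.9% (26.3 to 29.6%) and 27.1% (25.9 to 28.3%). The 5 cells with most Mt1 UMIs held 351 of the 4634 in the dexamethasone library (7.57%) and 197 of 6376 in the control (3.09%). The fullest cells had 105 and 50. By cell depth, the Mt1 ratio in cluster 2 was 0.80 (0.65 to 0.95) at 5000 to 10000 UMIs and 0.10 (-0.00 to 0.20) above. In cluster 0 its interval lay above 0 only in cells above 10000 UMIs (0.43, 0.04 to 0.82). The Mt1 interval included 0 in cluster 8 (0.08, -0.26 to 0.42) and in neuron-like cells (-0.39, -0.89 to 0.10). In the histone-led cluster 5, where Mt1 stood at 153.5 against 82.4 CPM (0.90, 0.73 to 1.07), 5 of 313 dexamethasone cells held 36.6% of its UMIs. Mt2A followed there, at 12.1 against 3.02 CPM from 45 and 21 UMIs, with a log2 interval of 1.22 to 2.82. RefSeq lists 3 other Mt1 copies, so the Mt1 counts carry the same uncertainty as those of ferritin.

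Mt1 and Mt2A were found in the same cells. At equal depth, 70 of the 80 dexamethasone microglia-like cells with a Mt2A UMI also had one of Mt1 (87.5%, 78.2 to 93.8%), against 26.3% of 2948 cells without Mt2A. In the control library the shares were 80.4% of 97 cells (71.1 to 87.8%) and 26.1% of 5460. The same contrast was seen inside cluster 2, at 86.5% against 36.2% in the dexamethasone and 84.7% against 34.1% in the control library. Other pairs were closer to even. Mt1 was found in 31.7% of dexamethasone cells with Hmox1 and in 23.7% of those without, and in 28.9% and 25.1% of control cells. Hmox1 was found in 53.1% of dexamethasone cells with Slc11a1 and 52.8% of those without.

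**Figure D3:**
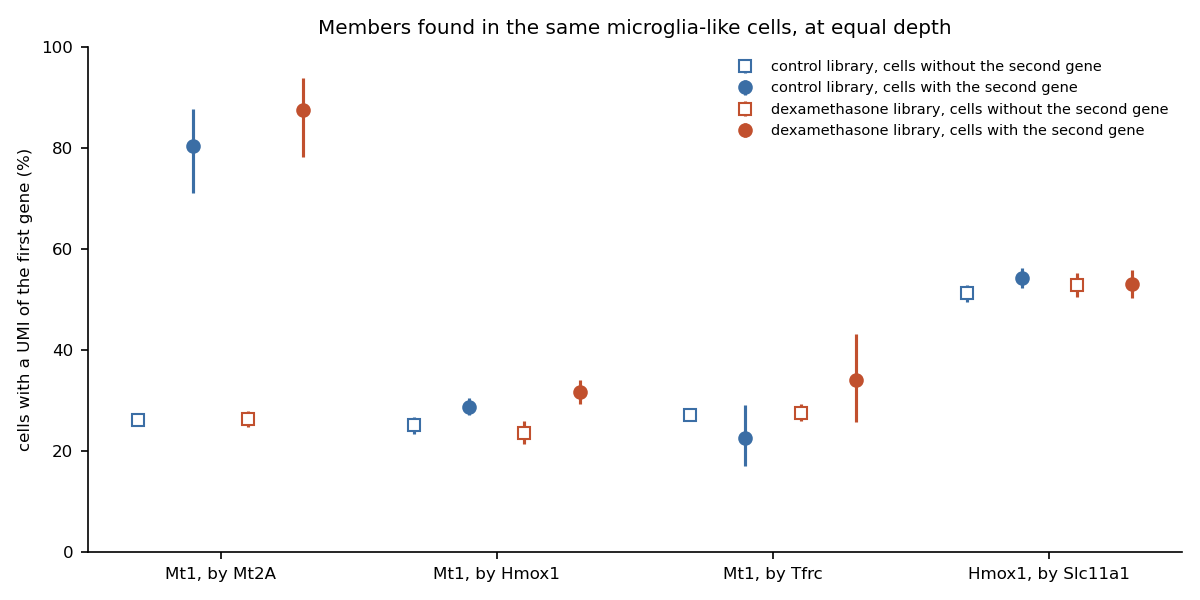
Share of microglia-like cells (%, thinned to 4400 UMIs) with a UMI of the first gene, among cells with (filled circles) and without (open squares) a UMI of the second, in blue for the control and red for the dexamethasone library, with Clopper-Pearson 95% bars. The Mt1 share is 80.4% and 87.5% in cells with Mt2A and 26.1% and 26.3% in cells without it.

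Across microglial states, ferritin, haem oxygenase, transferrin receptor and both metallothioneins were all higher in the Spp1 and Gpnmb-led cluster 2 than in the homeostatic cluster 0, in each library. Ftl1 stood at 6439 CPM in cluster 0 and 10657 CPM in cluster 2 of the dexamethasone library, and at 4050 and 6459 CPM in those of the control. Fth1 stood at 5034 and 7134 CPM in these clusters of the dexamethasone cells, and at 4243 and 6106 CPM in those of control cells. Hmox1 was higher by 1.05 (0.94 to 1.16) and 0.76 (0.69 to 0.83) on the log2 scale in the dexamethasone and control libraries, at 380.5 and 368.7 CPM in cluster 2. Mt1 was higher by 1.29 and 1.22, at 232.3 and 192.3 CPM, and Mt2A by 2.71 (1.92 to 3.62) and 3.84 (2.97 to 4.86), at 17.7 and 14.0 CPM. Tfrc was higher by 1.24 and 1.66. Slc11a1 was the exception, with -0.10 (-0.23 to 0.03) and -0.04 (-0.13 to 0.05). Thus 6 of 7 genes lay above 0 in both libraries, where 20.7% of 7518 genes did, and 0 lay below, where 26.2% did. Of them, 5 were at least 1.5-fold higher in both libraries, where 5.77% of genes were. Median depth differed too, at 11204 and 10570 UMIs in cluster 2 against 6520 and 5580 in cluster 0, and the count was 6 also after thinning. It was 3 among cells without a haemoglobin UMI, of which 401 dexamethasone and 167 control microglia-like cells remained. It was 2, with 4 below 0, under the finer grouping described next, where another group served as the homeostatic one, and there Hmox1 was -0.45 and -0.68, Mt1 -1.11 and -0.43, and Mt2A -2.35 and -0.98 in the dexamethasone and control libraries. The pattern over states therefore depends on how cells are grouped. Part of the cluster 2 UMIs of Hmox1, Mt1 and Mt2A also sat in few cells. For Hmox1, the 5 fullest dexamethasone cells held 620 of 3076 UMIs (265 of them in 1 cell), and the 5 fullest control cells 645 of 5454. For Mt1 such cells held 311 of 1878 and 180 of 2845, and for Mt2A 44 of 143 and 30 of 207. The ratios over cluster 0 without these cells were not tested.

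A finer grouping, made with another implementation of the Leiden method after the data were seen, divided the cells of cluster 2. It gave a Gpnmb and Cd68-led group (559 dexamethasone and 1396 control cells, of which 274 and 644 were from cluster 2), a Spp1 and Ccl2-led group (364 and 615, of which 345 and 586 were from cluster 2) and a Tmem119 and P2ry12-led group (1013 and 1969). By the homeostatic marker score the Gpnmb-led group ranked highest, above the Tmem119-led one, and the Tmem119-led group was taken as the reference here after the values were seen. Against the Tmem119-led cells, Hmox1 in the Gpnmb-led group was higher by 0.81 (0.71 to 0.90) in the dexamethasone and 1.03 (0.96 to 1.10) in the control library, at 388.2 and 408.1 CPM. Mt1 was higher there by 1.26 and 1.17 and Mt2A by 1.94 and 2.23, while Tfrc did not differ beyond counting error (-0.01, -0.62 to 0.59, and -0.21, -0.74 to 0.30). In the Spp1 and Ccl2-led group Tfrc was the gene that stood out, at 23.3 against 7.76 CPM in the dexamethasone (1.59, 1.14 to 2.04) and 19.8 against 5.76 CPM in the control library (1.78, 1.39 to 2.18). Hmox1 was higher by 0.35 in each library there. The metallothioneins of that group differed between libraries, with Mt1 higher by 0.15 (0.00 to 0.29) in the dexamethasone and 0.74 (0.62 to 0.86) in the control. Mt2A stood there at 4.66 CPM against 6.18 CPM in the Tmem119-led cells of the dexamethasone library (-0.41, -1.18 to 0.32), and at 6.95 against 2.91 CPM in those of the control (interval 0.65 to 1.86). Ftl1 and Fth1 were higher in both groups, and Slc11a1 in neither.

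**Figure D4:**
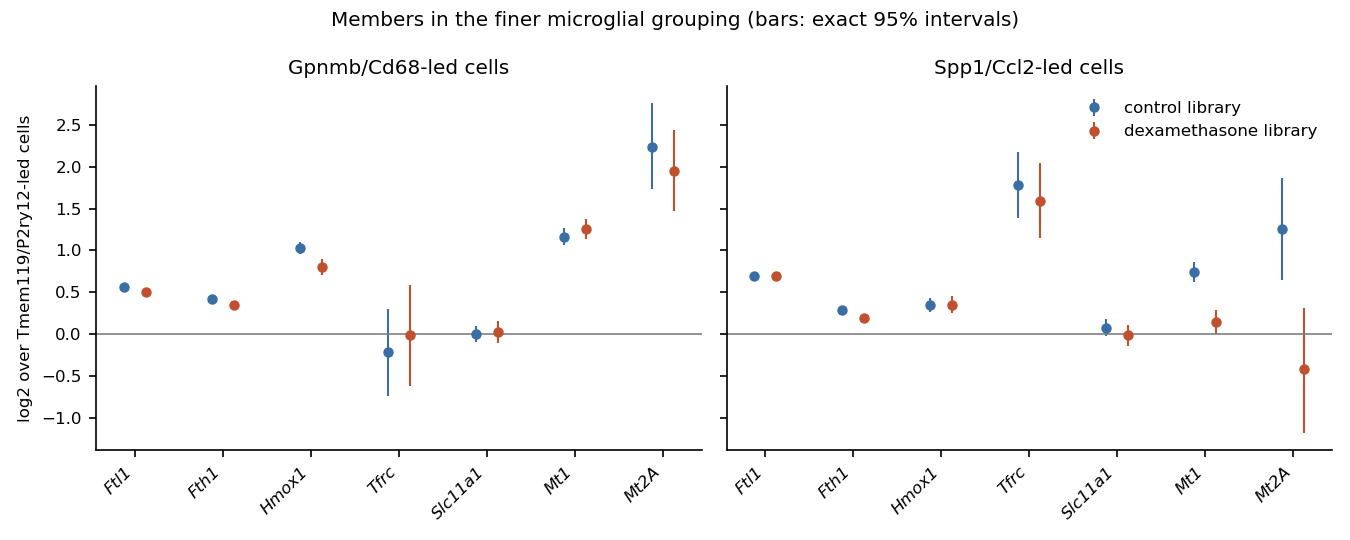
Log2 ratio (y axis) of 7 genes in the Gpnmb and Cd68-led (left) and Spp1 and Ccl2-led (right) microglia over Tmem119 and P2ry12-led microglia, control in blue and dexamethasone in red, with exact 95% intervals. Hmox1, Mt1 and Mt2A lie highest on the left and Tfrc on the right, at 1.59 and 1.78.

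In the Cdc6-led cluster 8 Tfrc stood at 17.0 CPM in the dexamethasone and 22.5 CPM in the control library, above cluster 0 by 1.21 (0.50 to 1.92) and 2.37 (1.80 to 2.94). In the other replication-linked clusters the interval lay above 0 in the control and included 0 in the dexamethasone library: cluster 1 had 7.25 and 8.38 CPM (-0.02, -0.60 to 0.59, and 0.94, 0.45 to 1.45) and cluster 5 had 8.04 and 8.79 CPM (0.13, -0.61 to 0.86, and 1.01, 0.44 to 1.58). Cluster 2 was at 17.3 and 13.8 CPM, and the mitotic cluster 4 at 4.80 and 4.78 CPM. Slc11a1 was lower than in cluster 0 in the histone-led cluster 5, at 105.3 and 105.1 against 166.0 and 167.4 CPM, and Ftl1 and Fth1 were lower there by 0.26 to 0.36 on the log2 scale. In cluster 8, 1 of 6 genes lay above 0 and 4 below in both libraries, where 22.9% and 16.8% of genes did, and in cluster 5 these were 1 and 4 of 7, where 26.1% and 21.2% did. Clusters 1 and 4 each had 2 of 7 above 0, where 21.4% and 24.8% of genes were, and 2 and 3 below, where 13.9% and 22.1% were.

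Border-associated macrophages, which line meninges and vessels and express the haemoglobin scavenger receptor Cd163, carried more Hmox1 and less Slc11a1 and Mt1 than homeostatic microglia. Hmox1 was higher by 0.43 (0.30 to 0.57) in the dexamethasone and 0.41 (0.32 to 0.50) in the control library, and Slc11a1 lower by -0.46 and -0.36. Mt1 stood at 72.7 and 54.9 CPM, below cluster 0 by -0.39 (-0.61 to -0.16) and -0.59 (-0.78 to -0.40), and Mt2A had 3 UMIs in each library. Of 6 genes, 2 lay above and 2 below 0 in both libraries, where 11.7% and 17.3% of all genes did. Between the libraries, Ftl1 and Mt1 (0.41, 0.16 to 0.65) were higher and Hmox1 lower before thinning, so 2 of 6 measured genes had intervals above 0 and 1 below, where 11.2% and 14.1% of 6582 genes did.

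The low-complexity cluster had the highest ferritin level of the classes in both libraries, with Ftl1 at 11580 and 7127 CPM and Fth1 at 8883 and 7542 CPM. Mt1 is among the genes that name this cluster and Ftl1 among its 10 leading genes, so their levels, for Mt1 383.9 and 177.1 CPM, are a description. Mt2A, which the name does not use but which was found in cells with Mt1, stood at 40.6 and 12.5 CPM, the highest of the classes. Taken alone, the microglia-like cluster 2 of the control library stood at 14.0 CPM for Mt2A and 192.3 CPM for Mt1. Both values lie inside the control intervals of the low-complexity cells (7.41 to 19.8 and 156.1 to 200.3 CPM), so no order is read from them. Slc11a1 was lower than in cluster 0 by -1.93 (-2.26 to -1.61) and -1.55 (-1.89 to -1.24), at 43.7 and 57.0 CPM, and 8 microglia markers reached the level asked of microglia-like clusters. Of 7 genes, 4 lay above cluster 0 and 1 below in both libraries, where 18.8% and 39.5% of genes did, but the 4 include Mt1 and Ftl1, so nothing is read from this count. Ribosomal protein genes held 23.7% and 20.6% of the UMIs of these cells. Between the libraries, 5 of 7 genes had intervals above 0 and 1 below, where 10.9% and 17.9% of 3289 genes did. Mt2A was higher by 1.70 (0.95 to 2.53), from 80 and 18 UMIs, Mt1 by 1.12 (0.91 to 1.33), and Tfrc lower by -2.30 (-4.09 to -0.82), from 5 and 18 UMIs. Of the 18 control Tfrc UMIs 10 were in 1 cell, and the share of cells with Tfrc was 1.43% (5 of 350) and 1.90% (8 of 421). The 5 cells with most Mt1 UMIs held 195 of 756 in the dexamethasone and 59 of 255 in the control library. For Mt2A such cells held 25 of 80 and 9 of 18. The control cells were shallower, and in cells of 5000 to 10000 UMIs the Mt1 ratio was 1.24 (0.90 to 1.58). Cells with UMIs of at least 3 platelet markers other than Pf4 numbered 1 and 8, held 185 of 497 and 1453 of 1782 Pf4 UMIs and had 0 Mt1 UMIs. Without them Mt1 stood at 384.0 and 178.3 CPM, and Fth1 at 8861 and 7245 CPM.

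Erythroid cells build haemoglobin, and haemoglobin took 86.6% and 86.9% of their UMIs, so levels there depend on the denominator. On total UMIs they had the lowest Ftl1 of the classes, 2531 and 1480 CPM. Without mitochondrial, ribosomal protein and haemoglobin UMIs in the denominator they had, of the classes, the highest Ftl1 (24186 and 14270), Fth1 (28427 and 26927), Tfrc (52.7 and 28.6, from 11 and 8 UMIs) and Mt1 (2276 and 567.7) per 1000000. The Tfrc UMIs were in 5 cells of each library, so the rank of Tfrc is known only coarsely. Erythroid-like cells held fewer light-chain than heavy-chain UMIs, with 0.851 Ftl1 UMIs per Fth1 UMI (0.819 to 0.883) and 0.530 (0.510 to 0.551). Mt1 was higher in the dexamethasone library by 2.02 (1.75 to 2.28), at 238.1 against 58.9 CPM. Most of that came from few cells, since 5 of the 103 dexamethasone cells held 385 of 475 Mt1 UMIs (81.1%), and 1 cell held 144. In the control library 5 of 130 cells held 42.1%, and at equal depth the share of cells with Mt1 was 11.8% and 13.2%. Of 5 measured genes, 3 had intervals above 0 and 0 below, where 27.3% and 19.9% of 704 genes did. In neuron-like cells 1 of 5 had an interval above 0 and 2 below, where 11% and 8.66% of 3751 genes did, with Hmox1 at 35.0 against 57.0 CPM (-0.70, -1.40 to -0.06) from 25 and 105 UMIs. After thinning to equal depth the neuron-like values were -1.13 (-2.69 to 0.16) for Hmox1 and -0.06 (-0.20 to 0.07) for Fth1, with intervals that included 0, and Tfrc in low-complexity cells had too few UMIs to be measured.

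Wider lists of iron and metal genes had a median ratio close to that of all genes in microglia-like cells, though some list genes with few UMIs differed more than any member. They were chosen with earlier results known and hold 90 genes, of which 87 were in the tables and 80 had at least 20 UMIs, the 7 members included. Intervals lay above 0 for 25 and below 0 for 13 of the 80, at 31.2% and 16.2%, against 24% and 24.5% of all genes, and the median log2 ratio was 0.04 against 0.00. Iron uptake genes had 3 of 8 above and 0 below, including Tf, which encodes transferrin itself, at 215.2 against 163.1 CPM (0.40, 0.36 to 0.45). Slc11a2, the endosomal iron importer, was at 16.8 and 16.5 CPM. Of storage genes 3 of 4 lay above 0. Besides the ferritin chains this was Ncoa4, the receptor that brings ferritin to lysosomes, at 138.3 against 126.6 CPM (0.13, 0.07 to 0.18), named here after its value was seen. Export genes had 1 of 4 measured, Cp, a copper oxidase that helps iron leave, at 57.8 and 57.1 CPM (0.02, -0.07 to 0.10).

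Beside each count that follows stand the shares of all genes, 24% above 0 and 24.5% below. Haem synthesis had 4 of 9 genes below 0 and 0 above, at a median of -0.09, and Urod, a decarboxylase of that pathway, was at 31.0 against 38.4 CPM (-0.31, -0.41 to -0.20). Alas1, the rate-limiting enzyme outside red cells, was at 50.1 and 53.2 CPM (-0.09, -0.17 to 0.00). Haem breakdown and transport had 4 of 13 above and 2 below, with Blvrb, a biliverdin reductase, at 96.4 against 85.1 CPM (0.18), Lrp1, a receptor that also clears haemopexin-bound haem, at 170.0 against 157.3 CPM (0.11), and Hmox2, the constitutive haem oxygenase, at 31.0 against 35.2 CPM (-0.18). Regulators had 2 of 10 above and 1 below: Zfp36l1, an mRNA decay factor, was at 410.7 against 324.9 CPM (0.34, 0.31 to 0.37), Skp1 at 148.6 and 144.8 CPM (0.04) and Aco1, an iron-sensing RNA-binding protein, at 25.8 and 24.3 CPM (0.08), the last pair with intervals that included 0. Mitochondrial iron genes had 4 of 12 above and 1 below, with Isca1 at 105.8 against 82.6 CPM (0.36) and Iscu, the iron-sulphur scaffold, at 197.5 against 225.7 CPM (-0.19). Slc25a39 stood at 137.2 and 140.2 CPM (-0.03, -0.08 to 0.02).

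Zinc and metallothionein genes had 5 of 12 above 0, Mt1 and Mt2A among them, and 1 below, against 24% and 24.5% of all genes. Slc30a5, a zinc exporter into the secretory pathway, was at 20.1 against 18.0 CPM (0.16, 0.02 to 0.31). The gene below 0 was Mt3, a metallothionein known from neurons, at 0.971 against 2.32 CPM from 32 and 131 UMIs (-1.26, -1.86 to -0.69), named here after its value was seen. Summed neuron markers in the same microglia-like cells stood at 5.82 CPM in the dexamethasone and 28.7 CPM in the control library. The part of neuronal RNA in the Mt3 value was not tested. Mtf1, the factor whose element is marked in the sequences above, had 0 UMIs in microglia-like cells of either library. As for Slc40a1, whether the reference used for counting could record Mtf1 was not tested. Targets of the antioxidant factor NRF2 had 4 of 11 above and 4 below, against the same shares of all genes. Sqstm1, an autophagy receptor, was lower at 66.7 against 84.1 CPM (-0.33, -0.41 to -0.26), Gclc higher at 21.1 against 17.9 CPM (0.24, 0.09 to 0.38), Prdx1 at 697.3 and 675.9 CPM (0.04, 0.02 to 0.07) and Gpx4 at 381.5 and 394.0 CPM (-0.05, -0.08 to -0.01).

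Over 22 cluster-by-library profiles (11 clusters with at least 50 cells in each library), the genes closest to each member by Pearson correlation of log2(CPM + 1) were listed as a description, since profiles share libraries, depth and cell composition. Hmox1 was closest to Cndp2, Amdhd2 and Arl11 (r = 0.97 each), and Slc11a1 to Magt1, Sumf1 and Fyb1 (0.99 each). Ftl1 was closest to Tmem256 (0.89), Gnpda1 and Ost4 (0.84 each), and Fth1 to Tmem256 (0.86), Tec (0.83) and Arl11 (0.82). Mt2A was closest to Fabp3 (0.82), Bola3 (0.77) and Chchd10 (0.70), Mt1 to Cd8a (0.63), Gpnmb (0.54) and Chchd10 (0.51), and Tfrc to Tmem97 (0.66), Oxct1 and Agpat5 (0.63 each). Among the members, Hmox1 and Slc11a1 had 0.89, Ftl1 and Fth1 0.86, and Mt1 and Mt2A 0.63.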

How the data were processed

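The deposited counts are raw UMIs per gene and barcode. Per the submitters' processing notes, the authors ran Cell Ranger 7.0.0 on Rnor_6.0. Other settings are not given in the sources used here. The members and lists were chosen with earlier results of these data known.

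Barcodes under 200 genes or above 20% mitochondrial UMIs were left out. Scrublet marked 1 of 4199 dexamethasone and 0 of 8044 control cells, so it did not work as a caller and doublets remain. Both libraries were clustered in scanpy 1.11.5 with 2000 variable genes, 30 components, 15 neighbours and leidenalg 0.10.2 at resolution 0.5. Members, listed genes, mitochondrial, ribosomal protein and 807 library-different genes were left out, the latter 3 after seeing a cluster made mostly of 1 library. Classes came from marker lists: at least 2 markers of another class among the top 25 genes of at least 50 CPM in at least 25% of cells, otherwise microglia-like with 10 markers at 0.6 of their median. UMIs were summed per class and library and divided by all their UMIs. A gene counted as measured with 20 UMIs, and background shares use genes with 100. A library at 0 stood at 3 counts. Thinning drew 4400 UMIs per cell. All 8 members were named. From each list came the 2 of highest level and the 2 of largest ratio with 20 CPM, and for each member the 3 most similar genes of at least 50 CPM. Some genes that this rule names are not reported here. Calculations were checked on simulated data.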

Additional observations from a re-analysis of the deposited data

Results flagged for a closer look

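Intervals lay on opposite sides of 0 in different cell groups for Fth1, Hmox1 and Tfrc, given as log2 ratios of the dexamethasone over the control library. The differences between groups were not tested, and intervals cover counting error only.

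Fth1 was higher in microglia-like clusters 0 (0.25), 1 (0.23), 2 (0.22), 4 (0.22), 5 (0.20) and 8 (0.14), in low-complexity (0.24) and in erythroid-like cells (0.091), and lower in neuron-like cells (-0.11). Hmox1 was higher in clusters 1 (0.13) and 4 (0.27) and in low-complexity cells (0.28), and lower in cluster 0 (-0.24), border-associated-macrophage-like (-0.22) and neuron-like cells (-0.70). Tfrc was higher in clusters 0 (0.75) and 2 (0.33) and lower in low-complexity cells (-2.30), from 5 and 18 UMIs in the last, where 1 control cell held 10 of the 18 and 1.43% and 1.90% of cells had the gene. After thinning to equal depth, intervals of Hmox1 in border-associated-macrophage-like and neuron-like cells and of Fth1 in neuron-like cells included 0. Within cluster 0 the Hmox1 interval lay below 0 only in cells of 5000 to 10000 UMIs.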

How the results depend on the processing

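No paired analysis was possible because each group is 1 library, so no replicate could be left out either. Of 358 gene-level values under the alternatives, 254 stayed within the main interval, 96 moved beyond it and 8 reversed. Under the igraph Leiden method, chosen after the data were seen, the group scoring highest for homeostatic markers was the Gpnmb and Cd68-led one. Against it the Spp1-led group had 2 genes higher and 4 lower in both libraries, in place of 6 and 0. The 8 reversed values, dexamethasone and control, were Fth1 -0.16 and -0.13, Hmox1 -0.45 and -0.68, Mt1 -1.11 and -0.43, and Mt2A -2.35 and -0.98. Leaving out cells with a haemoglobin UMI left 401 and 167 microglia-like cells, with 3 genes higher across those states, 1 lower between the libraries (Slc11a1, at -0.39) and 4 past 1.5-fold. The number past 1.5-fold was 2 in place of 1 with the members kept among the variable genes, with the other genes left out of clustering kept, and after thinning; at the lower fold threshold tried, 2 passed that threshold. After thinning, 0 in place of 4 values lay below 0 in the other classes, and 14 and 8 list genes in place of 25 and 13 lay above and below 0. Intervals of cell shares did not separate for any member at equal depth (0) and separated for 1, Hmox1, without thinning. These shares could not show a ferritin difference, since nearly all microglia-like cells had a UMI of each chain. Without thinning, 3173 of 3179 dexamethasone and 6159 of 6165 control cells had Ftl1, and 3170 and 6155 had Fth1. Slc40a1 had no UMI, so its shares could not separate either. Levels of Tfrc and Mt2A rest on under 30 UMIs in several groups, and their ratios are known only coarsely. TMM scaling shifted ratios by at most 0.07 in size except in low-complexity cells, where the offset was -0.14 and the Ftl1 ratio became 0.84. Clustering with the mitochondrial, ribosomal protein and library-different genes kept gave no low-complexity class, and so no count over the other classes.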

Other observations

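An unnamed cluster of 82 dexamethasone and 104 control cells, led by S100a6, Fn1 and MHC class II genes, had Mt1 at 144.4 against 57.4 CPM (log2 ratio 1.33, 0.91 to 1.76) and Hmox1 at 69.9 against 107.4 CPM (-0.62, -1.05 to -0.20). Ftl1 stood there at 5195 and 3042 CPM. Slc11a1 was at 68.9 and 87.4 CPM, below its level in cluster 0.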
